A study of Mus musculus and Homo sapiens with 9 samples.

Results

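CREB is a transcription factor that cyclic AMP (cAMP) signalling switches on, and the 10 genes described here encode CREB, its close relative, its coactivators and some of the genes it is known to induce. They are Creb1, Crem, Crebbp, Ep300, Per1, Siah2, Nr4a1, Nr4a3, Dusp1 and Fos, taken by name out of 21887 protein-coding mouse genes. Their selection was made with earlier results of these data known. The peaks were located by chromatin immunoprecipitation and sequencing (ChIP-seq) in B16, a mouse melanoma cell line. A thymine DNA glycosylase (TDG) peak belonged to a gene if its summit lay inside the gene or within 1 kb of either end. A p53 peak belonged to a gene if its summit lay inside it or within 10 kb.

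The series holds 9 samples in groups of 1 library. The TDG list came from cells of the genotype Tdg HA knockin, meaning that endogenous Tdg was tagged with HA, precipitated with an HA antibody. The p53 list came from cells of the same knockin genotype, precipitated with a p53 antibody, so tagged Tdg is common to both lists and no list from WT cells was used. The other 7 samples were not analysed here: input and IgG from the knockin cells, the HA antibody in WT B16 cells, the p53 antibody in Trp53 KO B16 cells, and 3 samples of the human lung cancer line NCI-H1299 with FLAG-TDG expressed (DMSO, C271 and IgG). Whether the knockin cells were 1 clone is not given in the sources used here. Each list is 1 library without a replicate, so no test was run, and every fold enrichment below is the authors' value for a peak over its local background. Whether the HA peaks depend on the tag, or the p53 peaks on p53, was not tested.

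As background, cAMP activates protein kinase A, which phosphorylates CREB bound at the cAMP response element TGACGTCA or at its core TGACG. Phosphorylated CREB recruits the acetyltransferases CBP (encoded by Crebbp) and p300 (encoded by Ep300). In pigment cells the melanocortin receptor raises cAMP, and CREB then induces Mitf, the master regulator of the lineage. TDG is a repair enzyme that excises mispaired thymine and the oxidised forms of methylcytosine, and is known to bind CBP and p300.

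The promoter sequences come first because the cores in them are set against the TDG summits below. Of the promoters printed, 4 have cores and a TDG peak, and Fos has cores without a peak. Creb1 has a peak without a core in the bases printed, and its peak extends beyond them. Each is the 250 bases before an annotated start, 5′ to 3′ on the gene's strand, from the RefSeq promoter table of GRCm38.p6, with every match to TGACG or its reverse complement CGTCA in capitals. A full element TGACGTCA, which reads the same on both strands, contains 2 overlapping cores.
Dusp1, chr17:26508473-26508722, minus strand: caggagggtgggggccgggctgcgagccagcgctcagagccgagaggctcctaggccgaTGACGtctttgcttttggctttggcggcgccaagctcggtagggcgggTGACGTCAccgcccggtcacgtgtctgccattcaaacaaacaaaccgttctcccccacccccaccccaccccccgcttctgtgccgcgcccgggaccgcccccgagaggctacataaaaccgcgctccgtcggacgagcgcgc
Nr4a1, chr15:101266596-101266845, plus strand: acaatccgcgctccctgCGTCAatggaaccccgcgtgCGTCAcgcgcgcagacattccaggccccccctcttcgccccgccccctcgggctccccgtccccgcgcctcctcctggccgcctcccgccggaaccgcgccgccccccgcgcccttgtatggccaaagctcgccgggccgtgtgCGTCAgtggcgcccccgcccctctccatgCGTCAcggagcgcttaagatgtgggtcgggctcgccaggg
Nr4a3, chr4:48045055-48045304, plus strand: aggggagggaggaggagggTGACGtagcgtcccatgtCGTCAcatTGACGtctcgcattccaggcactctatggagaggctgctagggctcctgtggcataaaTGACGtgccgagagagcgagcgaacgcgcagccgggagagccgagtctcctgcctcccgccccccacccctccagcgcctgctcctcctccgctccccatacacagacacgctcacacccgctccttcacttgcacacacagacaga
Per1, second annotated start, chr11:69099902-69100151, plus strand: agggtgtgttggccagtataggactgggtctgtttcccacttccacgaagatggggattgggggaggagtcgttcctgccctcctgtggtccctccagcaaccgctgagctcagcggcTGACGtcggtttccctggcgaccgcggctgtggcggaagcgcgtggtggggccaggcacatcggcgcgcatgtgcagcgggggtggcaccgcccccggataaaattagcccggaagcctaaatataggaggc
Fos, chr12:85473640-85473889, plus strand: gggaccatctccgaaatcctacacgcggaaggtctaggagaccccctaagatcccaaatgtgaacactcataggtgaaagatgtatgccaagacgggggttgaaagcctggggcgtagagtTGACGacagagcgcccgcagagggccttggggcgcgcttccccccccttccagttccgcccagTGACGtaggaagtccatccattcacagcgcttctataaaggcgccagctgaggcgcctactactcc
Creb1, chr1:64532554-64532803, plus strand: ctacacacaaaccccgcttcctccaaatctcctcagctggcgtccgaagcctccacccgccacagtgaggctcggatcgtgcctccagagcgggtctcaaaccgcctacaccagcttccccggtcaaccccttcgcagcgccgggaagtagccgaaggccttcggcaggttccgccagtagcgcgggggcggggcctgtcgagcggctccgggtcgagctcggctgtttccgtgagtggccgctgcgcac

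TDG peaks lay at 7 of the 10 genes, namely Creb1, Ep300, Per1, Siah2, Nr4a1, Nr4a3 and Dusp1, and were not called at Crem, Crebbp or Fos. Of all protein-coding genes, 14.8% had a TDG peak by the same rule. By role, the peaks lay at 1 of 2 transcription factor genes, 1 of 2 coactivator genes and 5 of 6 cAMP response genes. Per1 held 4 peaks and each of the other 6 held 1, which made 10 peaks in all. With gene ends alone, 6 of the 10 genes had a TDG peak, against 12.3% of all protein-coding genes. No p53 peak lay within 10 kb of any of the 10 genes, where 0.489% of all protein-coding genes had one, so a count of 0 of 10 is close to that background.

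The 10 peaks were of middling strength. Their fold enrichments ran from 4.64 to 7.03 with a median of 6.01, beside a median of 5.74 and quartiles of 4.95 and 6.77 for all 3410 TDG peaks, and 7 of the 10 were at or above the list's median. From the authors' fold enrichment and p-value, each summit was worked out to hold 20 to 27 reads, with a median of 24 in these peaks and 24 in the whole list. Exact Poisson 95% intervals of those reads, which cover counting error only, were turned into fold enrichments at the same background. They ran from 3.04 to 6.80 for the lowest peak and from 4.69 to 10.2 for the highest. All 10 intervals overlapped one another, so the order of the genes by fold enrichment was not resolved at this depth.

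**Figure D1:**
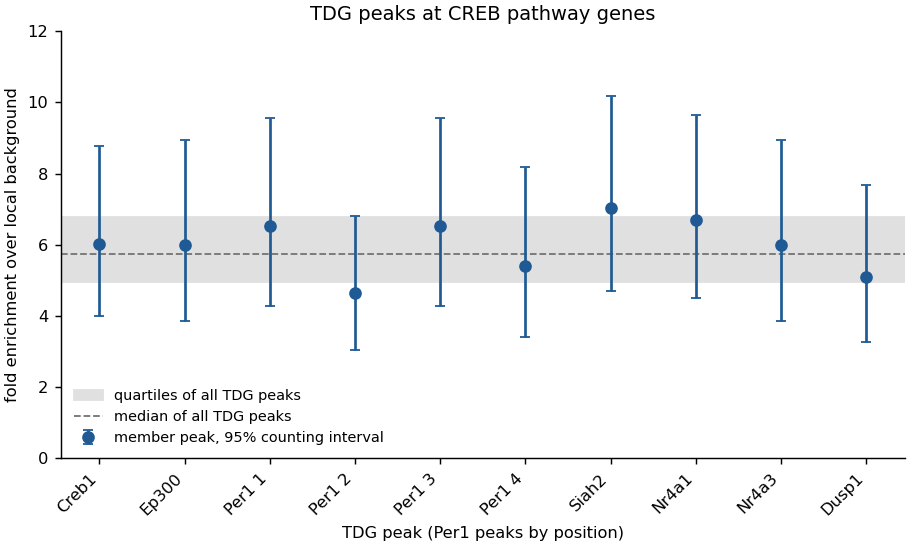
Fold enrichment of each of the 10 TDG peaks (points) with the exact Poisson 95% interval of its summit reads on the fold scale (bars), for Creb1, Ep300, the 4 Per1 peaks in order of position, Siah2, Nr4a1, Nr4a3 and Dusp1. The grey band and dashed line give the quartiles and median of all 3410 TDG peaks, and all but 2 points, Siah2 above and the second Per1 peak below, lie within the band.

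Among the transcription factors, Creb1 had a TDG peak and Crem did not. Creb1, on chromosome 1 from 64532794 to 64604548, encodes CREB itself. Its peak covered 64532468 to 64533048, a width of 581 bases, and reached 6.02-fold (−log10 q 9.45), with 25 reads at its highest point. That summit lay 174 bases before the annotated start, and the peak ran from 336 bases before the start to 244 bases after it. This start lies in a promoter with 31 CpG dinucleotides in 300 bases and no TGACG core on either strand.

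Crem, on chromosome 18 from 3266354 to 3337773, encodes CREB's close relative CREM and, from an internal promoter, the cAMP-induced repressor ICER. The nearest TDG summit was 2482060 bases away. TDG peaks were sparse on that chromosome as a whole: 23 of its 511 protein-coding genes (4.50%) had one. No p53 peak lay on that chromosome.

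Of the coactivator pair, Ep300 had a TDG peak and Crebbp did not. Ep300 lies on chromosome 15 from 81586209 to 81652077. Its peak covered 81585408 to 81585693 and reached 5.99-fold, with 22 summit reads and 8.19 as its −log10 q. The peak lay wholly upstream, from 806 to 521 bases before the annotated start, with the summit at 753 bases. At 748 bases from the gene end, this summit was the one nearest to the 1 kb limit among those at gene ends. The first gene beyond the limit was Fos, whose nearest TDG summit lay 8919 bases from the gene.

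Crebbp, on chromosome 16 from 4081334 to 4213957, is the longest of the 10 genes, with 132624 bases in which a summit could have fallen. The nearest one lay 234207 bases away, 63 bases from Zfp174. Its promoter window was the richest in CpG of the 9 windows examined, with 49 CpG dinucleotides in 300 bases, more than or equal to 98.9% of all windows. Chromosome 16 was well supplied with TDG peaks, at 26.8% of its protein-coding genes, whereas chromosome 18, which carries Crem, was not.

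Per1 encodes a repressor of the circadian clock and is induced by cAMP. It lies on chromosome 11 from 69095108 to 69109965. The 4 TDG peaks spanned 4991 bases between the first and the last summit. The first, at 69094838 to 69095567, reached 6.51-fold, and its summit lay 123 bases outside the lower end of the gene. The second, at 69096958 to 69097373, reached 4.64-fold and lay 1887 bases before the first annotated start in the promoter table. The third, at 69098476 to 69099219, reached 6.51-fold with its summit 33 bases before that start. The last, at 69099779 to 69100077, reached 5.40-fold with its summit 176 bases before the second annotated start. The first and the third were also the widest of the 10 peaks, at 730 and 744 bases, against a median of 420 bases for all TDG peaks.

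The last of these summits held 20 reads and each of the others held 24. The second had a lower fold enrichment at the same reads because its local background was 4 reads, against 2.558 reads genome-wide. Of all protein-coding genes, 10 (0.0457%) held 4 or more TDG peaks. Per1, at 14858 bases, was the shortest of these 10, whose median length was 53508.5 bases.

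**Figure D2:**
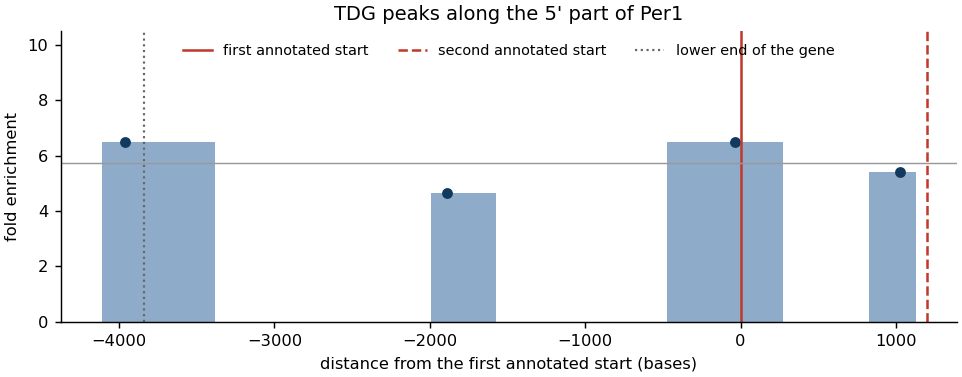
The 4 TDG peaks along the 5′ part of Per1, drawn as blocks from peak start to peak end (distance from the first annotated start, in bases) with the fold enrichment as height and points at the summits; the horizontal line is the median of all TDG peaks. The third peak spans the first start (red line), the last lies just before the second start (red dashed line), and the first spans the lower end of the gene (dotted line).

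The NR4A genes encode orphan nuclear receptors that are induced within minutes to hours by cAMP. Nr4a1 lies on chromosome 15 from 101253902 to 101274795. Its peak, at 101266619 to 101267032, had 6.70-fold enrichment (−log10 q 10.7) and 27 reads, the most reads of the 10 summits. By gene ends this peak counted as internal, 7965 bases from the nearer end, but its summit lay 16 bases before the annotated start in the promoter table. That start is 12944 bases inside the gene's outermost limit, so a count over gene ends leaves Nr4a1 out although the peak was at a start.

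Nr4a3 lies on chromosome 4 from 48045078 to 48086447. Its peak, at 48044713 to 48045125, reached 5.99-fold with 22 reads, and its summit lay 42 bases outside the gene and 269 bases before the annotated start. Nr4a3 and Ep300 had the same fold enrichment because both summits held 22 reads over the same genome-wide background. The share of genes with a TDG peak was 27.2% on the chromosome of Nr4a1 and 11.4% on that of Nr4a3.

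Siah2 encodes a ubiquitin ligase of the hypoxia response, and its gene had the highest fold enrichment of the 10 peaks. The gene lies on chromosome 3 from 58674949 to 58692439. The peak, at 58692193 to 58692495, had 26 reads and 7.03-fold enrichment, a fold at or above that of 80.8% of all TDG peaks. Its summit lay inside the gene, 74 bases from the upper end, and 224 bases from the long noncoding gene 4930593A02Rik. It was the only one of the 10 peaks with another annotated gene within 1 kb of its summit or around it. Chromosome 3 was not rich in TDG peaks, with 10.9% of its genes holding one.

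Dusp1 and Fos are short immediate early genes. Dusp1, which encodes a phosphatase that inactivates MAP kinases, lies on chromosome 17 from 26505591 to 26508472. Its peak, at 26508606 to 26508866, had 5.10-fold enrichment (−log10 q 6.37) and 21 reads. At 261 bases it was the narrowest of the 10 peaks, and only 0.469% of TDG peaks were as narrow or narrower. It lay wholly upstream of the start, from 394 to 134 bases before it, with the summit at 158 bases.

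Fos, which encodes a subunit of the AP-1 transcription factor, lies on chromosome 12 from 85473890 to 85477274. The nearest TDG peak, at 85485943 to 85486267, reached 5.21-fold and lay 8919 bases above the gene, and Fos was also the protein-coding gene nearest to it. Chromosome 12 had the highest share of genes with a TDG peak among the chromosomes of these 10 genes, 28.7%. Among genes of up to 5 kb, the class of Dusp1 and Fos, 6.46% had a TDG peak, against 15.4% or more in each of the 4 classes of longer genes.

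Strand was available for 8 of the 10 genes, in 9 promoter windows of 300 bases (250 before and 50 after the start). Of these windows, 7 had a TDG summit within 1 kb of the start, against 13.0% of the 21263 windows of protein-coding genes, and they belonged to Creb1, Ep300, Per1 (both windows), Nr4a1, Nr4a3 and Dusp1. The 21263 windows include none on chromosome 18, where TDG peaks were sparse. In each of the 7 windows the nearest summit was upstream of the start. Upstream summits were also the majority over all 2770 windows with a TDG summit, where 65.6% were upstream and the median position was 82 bases before the start.

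The 9 windows of the 8 genes held 16 to 49 CpG dinucleotides with a median of 30, against a median of 13 over all windows. Their median GC content was 67.0% against 56.3%. The windows poorest in CpG were the first Per1 start (16 CpG) and Fos (20 CpG), at percentiles 57.3 and 66.4 of all windows. TDG summits were rare at CpG-poor windows: 0.771% of windows with up to 5 CpG had one. The share was 19.8% at 16 to 20 CpG, 27.1% at 21 to 30, 26.1% at 31 to 40 and 18.5% above 40. The share near the starts of these genes, 7 of 9, is therefore better set beside these classes than beside 13.0%. In the class of 21 to 30 CpG all 3 windows (Nr4a3, the second Per1 start and Ep300) had a summit, and so did all 3 in the class of 31 to 40 (Creb1, Nr4a1 and Dusp1). At 16 to 20 CpG the first Per1 start had one and Fos did not, and Crebbp was the 1 window above 40.

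The cAMP response element was then placed against the summits. The full element occurred in 1 of the 9 windows, that of Dusp1, and in 2.23% of all windows. At 31 to 40 CpG, the class of Dusp1, it occurred in 85 of 2022 windows. The core occurred in 6 of the 9 windows and in 23.6% of all windows. It contains a CpG and was more frequent in CpG-rich windows. The core was in 736 of 2368 windows at 16 to 20 CpG, 1551 of 4177 at 21 to 30, and 773 of 2022 at 31 to 40. The 6 windows with a core among the 9 were at Dusp1, Nr4a1, Nr4a3, Fos and both starts of Per1. The windows of Creb1, Crebbp and Ep300 held no core, so all 6 windows with a core belonged to cAMP response genes. Crem, the other factor gene, and Siah2 had no window, so their promoters were not examined for cores.

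At Dusp1 the full element began 143 bases before the start, and the middle of the element lay 19 bases from the TDG summit. A further core at Dusp1 began 191 bases before the start, 31 bases from the summit on its other side, so the summit fell between them. Nr4a1 had 4 cores, at 233, 213, 69 and 40 bases before the start, and the summit lay 22 bases downstream of the nearest. Nr4a3 also had 4 cores, and they began 231, 213, 205 and 147 bases before the start. There the summit lay upstream of all 4, 40 bases from the nearest of them. That summit, 269 bases before the start, lay outside the window, so bases at it and further upstream were not searched for cores.

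The second start of Per1 had 1 core, 132 bases before the start and 46 bases downstream of the summit. Its first start had 1 core, 246 bases before the start and 211 bases from the summit. Fos carried 2 cores, at 129 and 66 bases before its start, in a window without a TDG peak. A core near the start therefore occurred with and without a TDG peak among these genes. Likewise a TDG peak occurred with and without a core in the window. Bases outside the windows, including all of those under the Ep300 peak, were not searched. Matches to these letters are descriptions of sequence, and CREB binding was not measured.

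**Figure D3:**
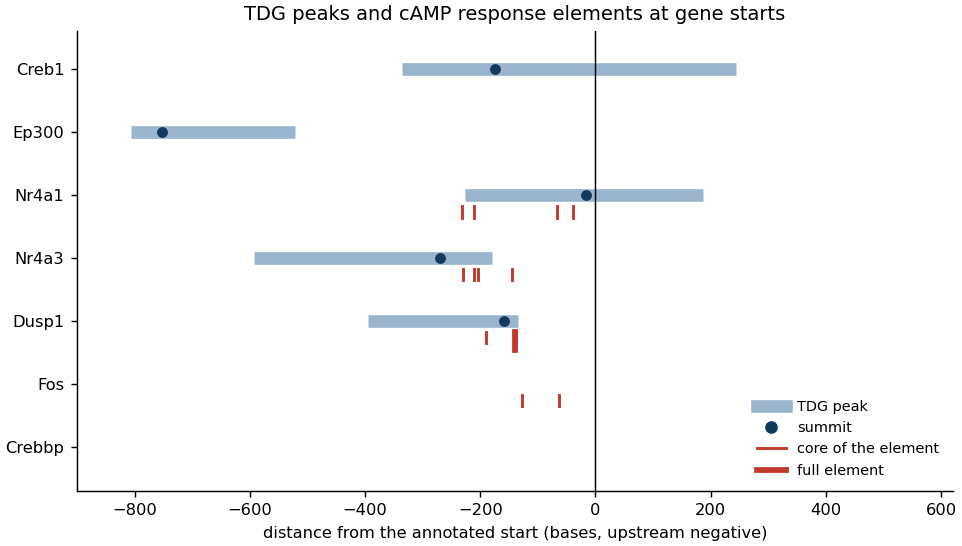
TDG peaks (blue bars) and their summits (points) relative to the annotated start (black line, 0 bases, upstream negative) of Creb1, Ep300, Nr4a1, Nr4a3, Dusp1, Fos and Crebbp, with full cAMP response elements (thick red ticks) and cores (thin red ticks). The summits at Nr4a1 and Nr4a3 lie 22 and 40 bases from the middle of the nearest core drawn. That at Dusp1 lies 19 bases from the middle of the full element. Creb1 and Ep300 show a peak without a core drawn, Fos shows cores without a peak, and Crebbp shows neither. Cores were searched only from 250 bases before to 50 after each start. Outside that stretch lie the Ep300 peak, the Nr4a3 summit and part of the Creb1 peak.

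Over all promoter windows, those with a full element had a TDG summit within 1 kb more often (118 of 475, 24.8%) than those without one (12.8%), and they also held more CpG, with a median of 23 against 13. Within windows of 16 or more CpG the share was 31.8% with a full element (111 of 349, exact binomial 95% interval 26.9 to 37.0%), 26.3% with a core only (793 of 3019, 24.7 to 27.9%) and 22.8% with no core (1400 of 6151, 21.7 to 23.8%). Neither the interval of the full element nor that of the core only met that of windows with no core, and these intervals overlapped each other. In each of the 4 separate classes above 15 CpG the order was the same, full element above core only above no core. Within each of these classes the interval of windows with no core overlapped both that of the full element and that of the core only. These intervals cover counting error only, several windows can belong to 1 gene, and no test was run. Below 16 CpG the pooled shares were 5.56% with a full element, 6.48% with a core only and 3.57% with no core. In finer classes the full element lay below no core each time. The shares were 0% against 0.744% at 0 to 5 CpG, 3.33% against 4.47% at 6 to 10, and 10.2% against 13.7% at 11 to 15. Windows with any core, full elements included, had 1.08%, 3.55% and 14.4% in these classes.

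**Figure D4:**
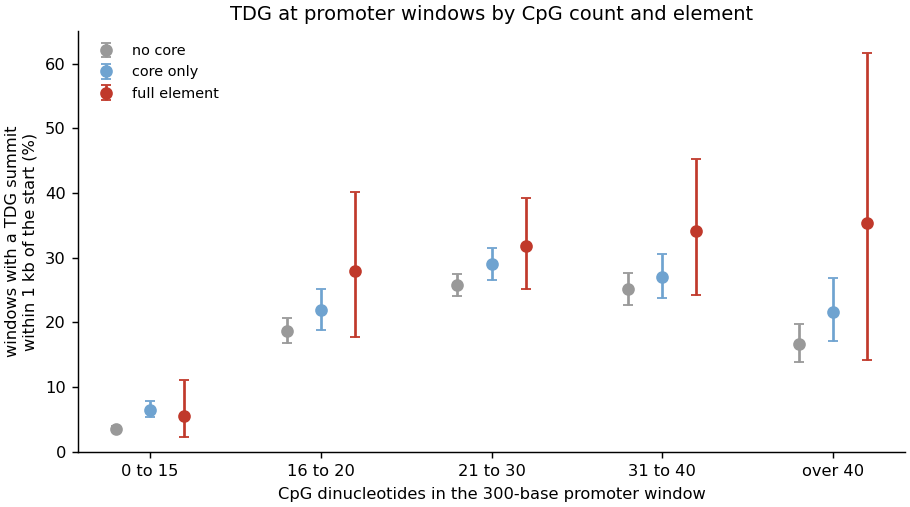
Share of promoter windows with a TDG summit within 1 kb of the start (y axis, percent, with exact binomial 95% intervals) by CpG dinucleotides in the 300-base window (x axis), for windows with no core, with the core only and with the full element. From 16 CpG upward the full element lies highest in each class, for example 31.8% against 25.7% with no core at 21 to 30 CpG, and its intervals are wide.

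The other genes of the pathway were taken from 4 lists, which include the 10 genes and were also chosen with earlier results of these data known. Of 16 CREB and ATF family genes, 6 (37.5%) had a TDG peak, each at a gene end, beside 14.8% of all protein-coding genes by the same rule and 12.3% at gene ends. Without Creb1 and Crem the count was 5 of 14. These 5 were Atf5 (9.37-fold), Creb3 (8.85-fold), Creb3l2 (7.47-fold), Atf7 (7.03-fold) and Atf2 (5.19-fold). All are leucine zipper factors, and Creb3 and Creb3l2 encode factors held in the endoplasmic reticulum membrane until they are cleaved. At Creb3 the summit lay 139 bases before the annotated start, at Atf5 227 bases and at Atf2 203 bases, while at Atf7 it lay 35 bases after it. The summits of Atf5 and Creb3 held 35 and 33 reads, more than any of the 10 peaks described above.

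Of 14 coactivator genes, 4 (28.6%) had a TDG peak, or 3 of 12 without Ep300 and Crebbp, beside the same 14.8%. Beside Ep300 they were Carm1 (6.72-fold), which encodes an arginine methyltransferase that acts with p300 and CBP, Cited2 (5.47-fold), which encodes a protein that binds both, and Kat2a (5.47-fold), which encodes the acetyltransferase GCN5. None of Crtc1, Crtc2 and Crtc3, the cAMP-regulated coactivators of CREB itself, had one. The upstream list, with the melanocortin receptor, adenylyl cyclases, protein kinase A subunits and inhibitors, phosphodiesterases and salt-inducible kinases, had 2 of 32 (6.25%), below the 14.8% of all genes. These were Prkar1b (9.37-fold), a regulatory subunit of protein kinase A, and Sik2 (4.64-fold), a kinase that restrains the Crtc coactivators.

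Of 30 cAMP response genes, 9 had a TDG peak, but 5 of these 9 are among the 10 genes, and outside them the count was 4 of 23, near the 14.8% of all protein-coding genes. Mitf had 2, the stronger (7.16-fold) 39595 bases from the nearer gene end and the other within 1 kb of an end. Fosl2, a relative of Fos, had 1 (6.77-fold), 555 bases before its start. Btg2, an antiproliferative gene that p53 also induces, had 1 (6.66-fold), 8 bases before its start. Nr4a2, the remaining NR4A gene, had 1 (4.95-fold), 9181 bases after its nearest annotated start in the promoter table. All 3 NR4A genes thus held a TDG peak, and 2 of them, Nr4a1 and Nr4a3, held it near a start in that table. Starts of Nr4a2 outside that table were not examined. Btg2 was the only gene of the 4 lists with a p53 peak within 10 kb (15.9-fold).

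The 4 lists together held 89 genes, of which 21 (23.6%) had a TDG peak. Without the 10 genes, 14 of 79 had one (17.7%), close to the 14.8% of all protein-coding genes. The lists that hold the 79 were, like the 10 genes, chosen with earlier results known, so the 79 are not an independent comparison. At gene ends alone the share was 16.5% of the 79, beside 12.3%. Of 8 melanocyte markers, 3 (Mitf, Gpnmb and Pmel) had a TDG peak and Tyr, Tyrp1, Dct, Mlana and Sox10 did not. Peak lists do not measure expression, so the cell type in the labels was not checked by them.

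**Figure D5:**
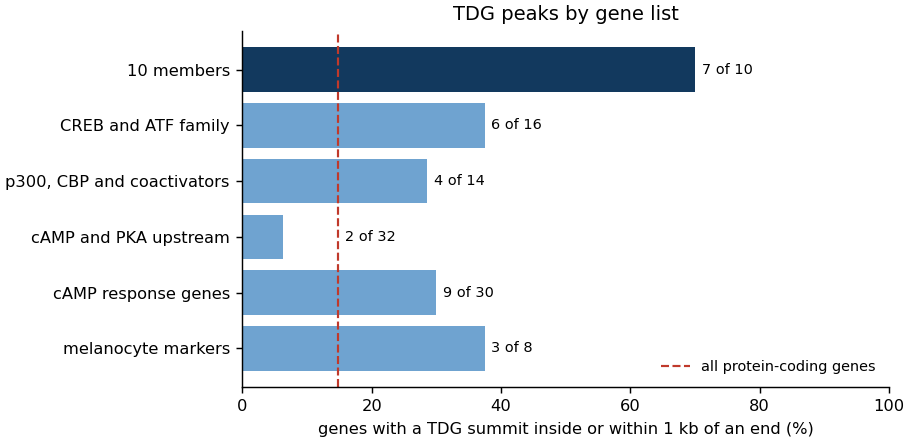
Share of genes with a TDG summit inside the gene or within 1 kb of an end (x axis, percent) for the 10 genes, the 4 pathway lists and 8 melanocyte markers, with the counts beside the bars; the dashed line is the 14.8% of all protein-coding genes. The 10 genes (7 of 10) and the lists were selected with earlier results known. The 10 genes are part of the pathway lists below them, and the upstream list (2 of 32) is the one below the line.

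The p53 list was short, with 126 peaks, and no peak of it came near the 10 genes. The nearest p53 summit was 879224 bases from Dusp1, 1131134 bases from Nr4a1 and 1448072 bases from Fos. The distances for Siah2, Ep300, Crebbp, Per1, Nr4a3 and Creb1 ran from 2670931 to 54893670 bases. No site shared by p53 and TDG was therefore found at any of the 10 genes. Of all protein-coding genes only 0.489% had a p53 peak within 10 kb, so this absence is close to the background.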

How the data were processed

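The 10 members and the gene lists were chosen with earlier results of these data known. The submitters' processing notes name, with no version or role, the build mm10 and the tools MACS2, Bowtie2, ChIPseeker, Picard, deepTools and Trim Galore. Which control was used and how peaks were thresholded is not stated in any source at hand. The authors deposited 1 peak list per library in the narrowPeak layout: positions in bases, fold enrichment (a ratio of the summit to the local background), −log10 p and −log10 q of the summit, and a score made from the −log10 q. The lowest deposited −log10 q was 3.02 for TDG and 3.74 for p53. Fold enrichments of the lists were never compared with each other.

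Gene limits were read from RefSeq's GRCm38.p6 table (the coordinates of mm10) for 21887 protein-coding genes on placed chromosomes. Reads at a summit were obtained by solving MACS2's fold enrichment and Poisson p for reads and background at once. In that ratio 1 is added to both the summit and the background. Summit values were then divided by a scale factor recovered from the list to give reads, and background values were not. Summit reads divided by background reads therefore do not return the fold enrichment. The summit reads came out whole within 0.05 reads for 99.94% of TDG peaks, and the genome-wide background was 2.558 reads. Total reads per library were not known. Reads carry no molecular identifiers, so intervals cover counting error only. Promoter windows (250 bases before to 50 after a start) came from the RefSeq promoter table and matched 8 of the 10 genes, all but Crem and Siah2. The comparison by CpG count was chosen after seeing the data. With 1 library per group no test was run. The alternatives were other windows, stricter peaks, gene ends alone, overlap of peak intervals, −log10 q as strength and the core of the element. The text names the 10 genes, the genes of each list with a TDG peak (up to 6 by fold enrichment) and those with a p53 peak within 10 kb, plus the nearest genes of a described summit. The list genes named as lacking a TDG peak (Crtc1 to Crtc3 and 5 melanocyte markers) were named after their values were seen. Assignment and read recovery were tested on simulated data. Python 3.11.15, pandas 2.3.3, NumPy 2.4.6 and SciPy 1.17.1 were used.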

Additional observations from a re-analysis of the deposited data

How the results depend on the processing

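The 7 of 10 genes with a TDG peak remained the same 7 with a 3 kb window, with a −log10 q of at least 5 and with overlap of the peak interval in place of the summit. The count was 6 with gene ends only, which left out Nr4a1, and 6 when weaker peaks, under the median fold enrichment of the list, were dropped, which left out Dusp1. The share of all protein-coding genes moved with these settings, between 7.96 and 15.8%. The count of 0 genes with a p53 peak held at 1 kb, at 50 kb and at a −log10 q of at least 5. The median rank of the 10 peaks in the TDG list was at percentile 58.5 by fold enrichment and at percentile 56.3 by −log10 q. The upstream list fell from 2 to 1 gene at a −log10 q of at least 5, because the peak of Sik2 lies at 4.95. Of the promoter windows of the 10 genes, 1 held the full cAMP response element and 6 held its core. The remaining counts stayed within 1.5 times their main value. At 20 to 27 reads per summit, differences between these peaks were within counting error. Without replicates, reproducibility between cultures was not measured.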
